A study of Mus musculus with 12 samples.

Results

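The shaft of the wild-type mouse femur, the diaphysis, was compared with the metaphysis, the flared part beneath the growth plate, in 6 of the 12 messenger RNA libraries of the series. The 6 are the wild-type (WT) libraries, 3 of each region, chosen by their genotype and tissue labels. All came from 5-week-old males of mixed strain background, and no treatment is given. Metaphysis titles also hold the letters GP, left unexplained by the labels. Every library title holds a number of its own, which the labels do not explain. The labels do not say that the libraries came from separate animals, so a p-value measures the spread between libraries, which may be technical. The other 6 libraries carry the genotype Dlx3Oc-cKO (cKO from here on), a deletion of the homeobox gene Dlx3 in which Oc stands for the osteocalcin promoter that drives the recombinase in bone-forming cells. They were used as a second look at the same pair of regions, 3 libraries of each.

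A growing limb bone lengthens at the growth plate, where chondrocytes divide in columns within a matrix of type II collagen and aggrecan, swell, switch to type X collagen and Indian hedgehog, and are then replaced by bone. The metaphysis holds the front at which osteoclasts remove calcified cartilage and osteoblasts lay trabeculae on its remnants. The shaft is a tube of cortical bone with many osteocytes, wrapped in the fibrous periosteum and filled with marrow. RNA of either region mixes bone cells with red cell precursors, leukocytes, vessels and adhering muscle. In such bulk RNA, fewer cells of a type and less RNA per cell cannot be told apart.

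Levels below are the deposited RPKM (read counts divided by transcript length and by the library's total), summed per symbol and rescaled so that the 18335 symbols listed for both regions have the same sum, 1000000, in every library. They are per length, so levels of different genes can be set side by side. Depth, in units of 1000000 reads, was 26.3 to 42.2 for the diaphysis libraries and 27.5 to 35.0 for those of the metaphysis. Each region was deposited as a table of its own, and the headers of the 2 tables carry different data identifiers. A difference between regions and a difference in how the tables were made cannot be told apart, in either genotype. Differences are log2 values, diaphysis minus metaphysis, on the log2(level + 0.1) scale, which understates the change of low genes. They were tested by limma with Benjamini-Hochberg adjustment over 13728 genes and a threshold of 0.05, and ± after a difference is its SE.

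At that threshold 12 genes were higher in the diaphysis (0.0874% of those tested) and 8 were lower (0.0583%), while 1678 had an unadjusted p under 0.05. The median difference of all genes was -0.02. Of the 20 genes, 16 (80.0%) have a transcript under another symbol that is at least 90% identical over at least 50% of their coding part, against 9.27% of the genes tested. The search covered the 17868 of 18335 symbols with a transcript in the annotation used here, and the others count as having no copy. With every gene for which it found such a copy left out, limma called 0 of 12456 genes, 1381 of which had an unadjusted p under 0.05. The count depended on each of the 6 libraries. Leaving out diaphysis replicate 2 or 3, or any metaphysis replicate, left 1 to 5 genes, and leaving out diaphysis replicate 1 gave 563.

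Short stretches of 3 pairs of these copies are printed to show how little separates them there. Over the aligned transcripts, identity was 98.1% for Gm9104 with Rpl21, 92.9% for Hbb-b2 with Hbb-b1 and 99.4% for Rpl34 with Rpl34-ps1. Each line is a stretch of 75 bases in mm9, 5′ to 3′ on the gene's own strand, with capitals where the members of the pair differ. Rpl21, a protein of the large ribosomal subunit, lies at chr5:147647171-147647245 (plus strand, coding) and Gm9104, a gene model with nearly the same coding sequence, at chr17:45603010-45603084 (plus strand, coding). They differ at 5 bases here.
Rpl21: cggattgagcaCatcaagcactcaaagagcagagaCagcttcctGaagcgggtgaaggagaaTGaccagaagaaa
Gm9104: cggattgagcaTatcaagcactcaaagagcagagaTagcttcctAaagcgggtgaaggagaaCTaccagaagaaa
Hbb-b1 and Hbb-b2, the adult beta-globin genes, differ at 1 base in the stretches at chr7:110975200-110975274 and chr7:110961191-110961265 (minus strand, coding).
Hbb-b1: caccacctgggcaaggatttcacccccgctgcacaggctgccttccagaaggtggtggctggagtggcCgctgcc
Hbb-b2: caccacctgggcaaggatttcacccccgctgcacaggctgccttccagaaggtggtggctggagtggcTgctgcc
Rpl34, also of the large ribosomal subunit, lies at chr3:130431994-130432068 (minus strand, coding) and its pseudogene Rpl34-ps1 at chr6:71074669-71074743 (plus strand, exon), with 1 differing base.
Rpl34: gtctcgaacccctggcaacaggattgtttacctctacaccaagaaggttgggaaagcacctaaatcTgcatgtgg
Rpl34-ps1: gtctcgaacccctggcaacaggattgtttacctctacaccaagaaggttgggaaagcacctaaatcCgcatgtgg

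Gm9104 had the largest difference of the 20. Its level was 377, 449 and 453 in diaphysis replicates 1 to 3 and 1.18, 0.765 and 0.676 in the metaphysis, a difference of 8.80 ± 0.22 with an adjusted p of 3.6e-05. The groups lie far apart, and so do the cKO libraries, at 295 to 502 and 1.38 to 1.46. Rpl21 stood at 233 to 290 in the wild-type diaphysis and 276 to 298 in the wild-type metaphysis. Added together, Rpl21 and Gm9104 stood at 610, 734 and 743 against 277, 287 and 298, without overlap. Near-identical transcripts of Gm9104 were found under 55 symbols. This sum takes in Rpl21 alone of them, so it does not give the level of the whole family. Rpl34 went the other way, at 168, 136 and 115 in the diaphysis and 861, 790 and 843 in the metaphysis (-2.59 ± 0.15, adjusted p = 0.00537). It had near-identical transcripts under 6 other symbols, and no sum with them was made.

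Other copies past the threshold were as follows. Higher in the diaphysis were Gm13611 (3.49), Gm10136 (4.21) and Rplp2-ps1 (1.15), near-identical to the ribosomal protein genes Rpl36, Rpl26 and Rplp2. Pabpc1 (0.87), the main cytoplasmic poly(A)-binding protein, was higher too, as were the gene models Gm16378 (4.27), Gm5148 (3.35) and Gm2058 (1.58). Lower were the gene model Gm13212 (-3.62) and 3 genes of mitochondrial proteins with a pseudogene elsewhere, Cisd1 (-0.95), Uqcr10 (-0.86) and Ndufb4 (-0.78). Added to their near-identical genes, Gm13611 with Rpl36 and Gm10136 with Rpl26 overlapped between the regions. These sums were 554 to 710 in the diaphysis against 576 to 825, and 155 to 169 against 157 to 167. The sum of Rplp2-ps1 and Rplp2 was lower in the diaphysis, at 1202 to 1408 against 1482 to 1780. Near-identical symbols numbered 10 for Gm13611, 6 for Gm10136 and 2 for Rplp2-ps1, and the sums leave the rest of them out. Genes among the 20 other than Tmem203, Ndufc1 and Hbb-b2 were named after their values were seen.

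The 4 genes for which no such copy was found were Beta-s, which the annotation used here does not list, Snord95, Tmem203 and Ndufc1. Snord95, a small nucleolar RNA, was at 3.37, 1.66 and 4.89 in the diaphysis and listed at 0 in the 3 metaphysis libraries, and in cKO it was at 0, 6.26 and 2.59 against 1.5, 0 and 1.16. The gene is very short (chr11:48616641-48616708), so these low levels rest on few reads. Tmem203 (chr2:25110959-25111872, plus strand), which encodes a small membrane protein, was at 13.5, 14.0 and 14.2 in the diaphysis and 33.4, 30.6 and 34.4 in the metaphysis, a 2.36-fold difference of the means (-1.23 ± 0.12, adjusted p = 0.0268). Ndufc1 (chr3:51208599-51212910, minus strand), a subunit of respiratory complex I, was at 100, 103 and 92.0 against 210, 240 and 201 (-1.14 ± 0.11, adjusted p = 0.0266). For both genes the libraries of a region lie close together and the regions do not overlap. In the cKO libraries their differences were -0.88 (adjusted p = 0.0457) and -0.70 (adjusted p = 0.106). Neither gene passed with near-identical copies left out, where the smallest limma adjusted p was 0.163. Under other scalings Ndufc1 did not pass: RPKM as deposited (adjusted p = 0.0843), globins left out of the total (0.072) and the median of ratios (0.0802). Tmem203 passed under these scalings.

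**Figure D1:**
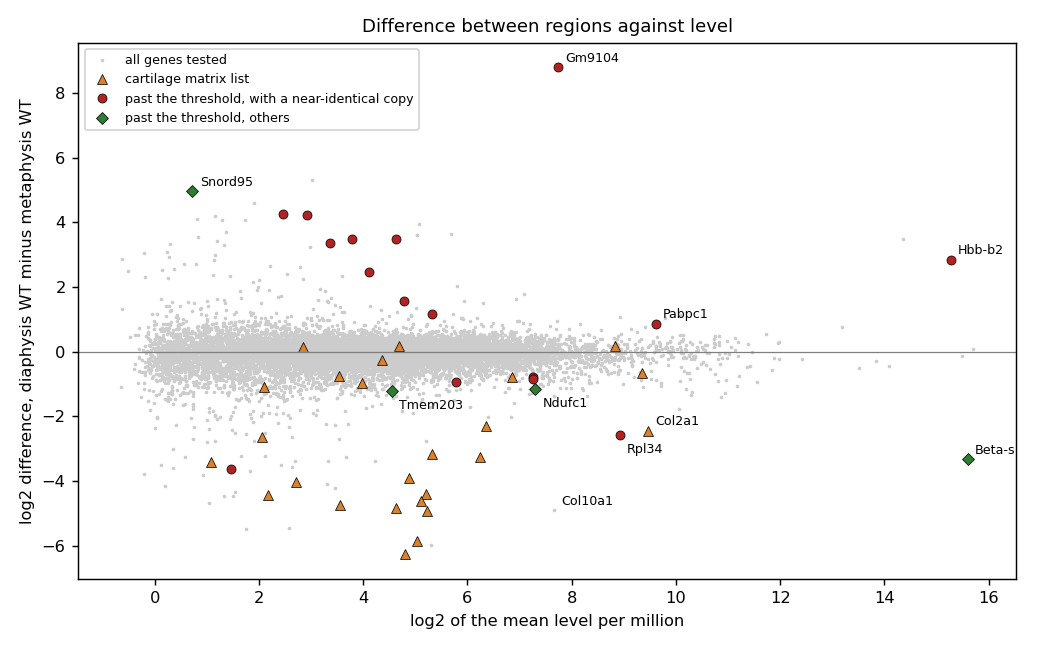
Each grey point is 1 of the 13728 genes tested; the horizontal axis is the log2 of its mean level and the vertical axis its log2 difference, diaphysis minus metaphysis, in wild type. Circles (16 genes with a near-identical copy) and diamonds (4 others) passed the threshold of 0.05, and triangles are the 25 tested genes of the cartilage matrix list, whose median is -3.15 and of which 0 passed.

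The globins, the oxygen carriers of red cells, took a large part of these libraries: 32.6%, 17.9% and 15.1% of the total in diaphysis replicates 1 to 3 and 19.1%, 22.1% and 19% in the metaphysis. How the beta-like values divide among 3 symbols differed by region. Beta-s held 7.58% to 8.48% of them in the shaft against 87.2% to 88.7% in the metaphysis, whereas Hbb-b2 held 47.4% to 71.2% and 8.79% to 10.2%. Hbb-b2 and Beta-s passed the threshold in opposite directions, at 2.84 ± 0.25 (adjusted p = 0.0209) and -3.33 ± 0.31 (adjusted p = 0.024). The 3 symbols added up to 183923, 91284 and 78246 in the diaphysis and 93392, 119845 and 93603 in the metaphysis, so the groups overlap once the symbols are added. Of the alpha-globin pair, Hba-a1 held 54.8% to 56.3% of the sum against 51.4% to 52.1%.

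**Figure D2:**
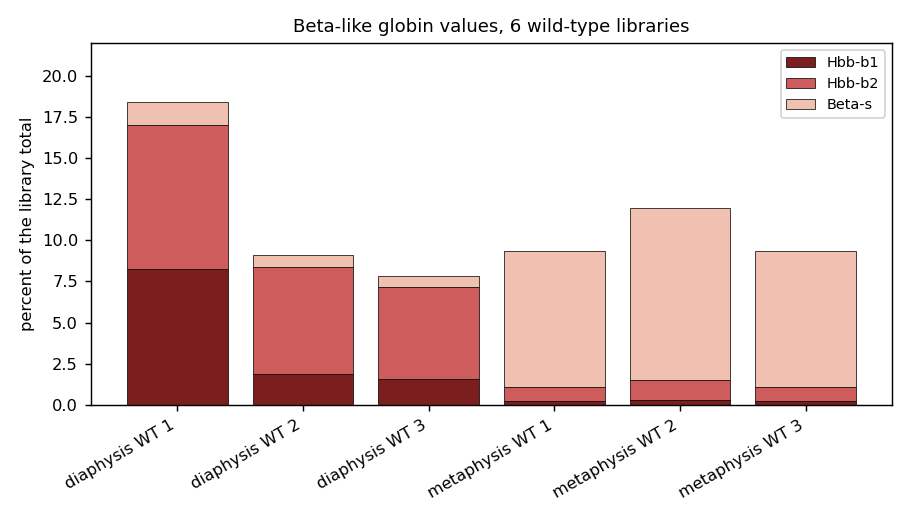
Stacked bars give the share of each wild-type library's total, in percent, taken by the 3 beta-globin symbols. Beta-s fills most of the bar in the metaphysis (87.2% to 88.7% of it) and a small part in the diaphysis (7.58% to 8.48%), and diaphysis replicate 1 has the tallest bar.

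Diaphysis replicate 1 stood apart from the other diaphysis libraries. Its list score, the mean log2 level of a list's genes centred on the 6 libraries, was the lowest of the 6 in all 16 skeletal lists and in 26 of 39 lists altogether, and the highest in 5. In the osteoblast list the scores were -1.71, 0.29 and 0.93 in diaphysis replicates 1 to 3 and 0.14, -0.04 and 0.39 in the metaphysis. In the erythroid list they were 0.58, -0.07 and -0.11 against -0.27, -0.03 and -0.10. The part that this library's larger globin share plays in the differences was not tested. Many of the results below, though not all, are given with and without this library. Without it, 367 of 13665 genes were higher (2.69%) and 196 lower (1.43%), and of the 20 genes above, 18 were tested and all 18 called again. The balance depended on the scaling: 65.2% of these calls were higher, against 44.5% of 420 calls with the median of ratios, and the median difference of all genes was 0.11 and 0.00.

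The cKO libraries gave 524 genes higher in the diaphysis (3.79%) and 1130 lower (8.17%) of 13838, or 1087 and 1479 with the median of ratios. All 20 wild-type calls had the same sign there and 16 were called, the exceptions being Ndufc1, Cisd1, Gm2058 and Snord95. The wild-type calls without diaphysis replicate 1 and the cKO calls shared 136 genes with the same sign (61 higher and 75 lower), which is 24.2% of the former and 8.22% of the latter, and 3 with opposite signs. When the region difference in cKO was tested against that in wild type, limma called 0 of 13728 genes (smallest adjusted p = 0.986), and 551 had an unadjusted p under 0.05. No gene is thus shown to differ between genotypes in its region difference. That test included diaphysis replicate 1 and was not run without it.

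**Figure D3:**
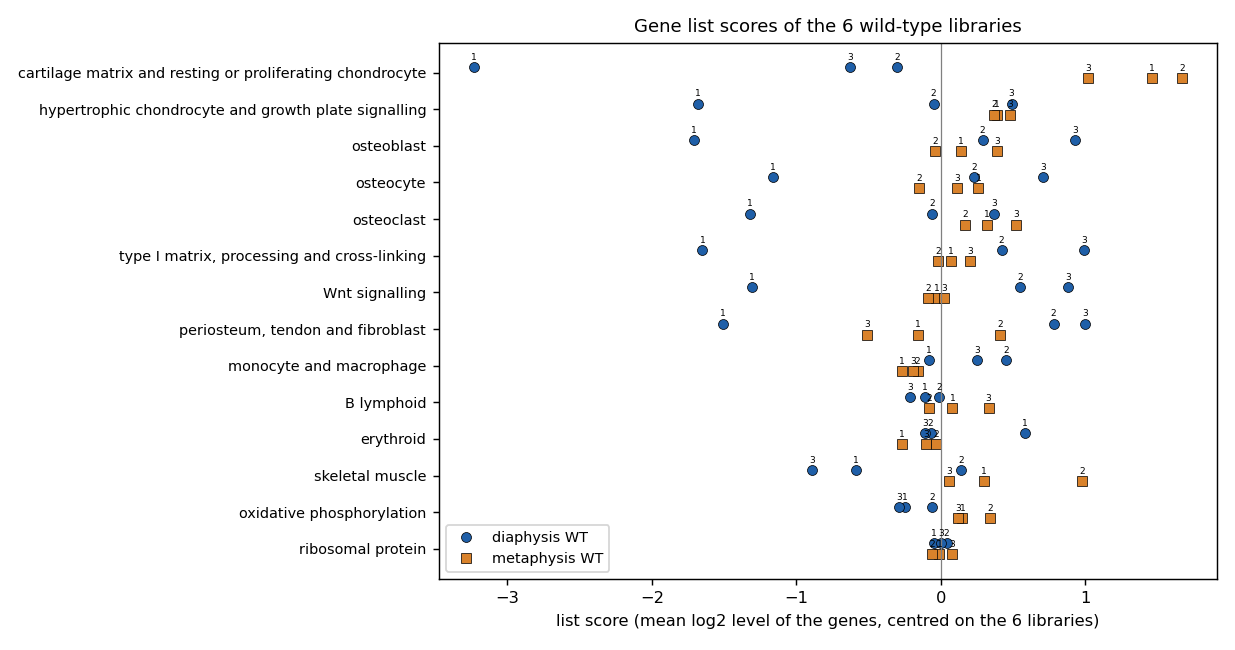
Each row is a gene list and each marker 1 wild-type library, numbered by replicate, with circles for the diaphysis and squares for the metaphysis; the horizontal axis is the list score in log2 units. For the cartilage matrix list the squares (1.02 to 1.67) lie right of the circles (-3.23 to -0.30), and diaphysis replicate 1 lies far left in the skeletal rows.

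The cartilage genes had the largest median difference, in size, of the 39 lists. Of 26 genes for cartilage matrix and for resting or proliferating chondrocytes, 25 could be tested. In 16 of them every diaphysis library lay below every metaphysis library, against 11.2% of all genes tested, and in 0 every one lay above, against 9.29%. Their median difference was -3.15, and 0 passed the threshold with the 6 libraries. Without diaphysis replicate 1 the median was -2.02, with 13 genes called lower and 2 higher. In the cKO libraries it was -4.50, with 21 lower and 1 higher. Of all genes tested, 1.43% were called lower and 2.69% higher without replicate 1, and 8.17% and 3.79% in cKO.

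Col2a1 (chr15:97806033-97835155, minus strand), the main collagen of cartilage, was at 76.9, 255 and 441 in the diaphysis and 1330, 1386 and 750 in the metaphysis. The means were 258 ± 182 and 1155 ± 352 (SD, n = 3 each), a difference of -2.44 ± 0.62 with a limma adjusted p of 0.2, and of -1.73 without diaphysis replicate 1 (adjusted p = 0.0366). Acan (chr7:86198369-86259985, plus strand), the aggregating proteoglycan that holds water in cartilage, was at 1.34, 15.2 and 20.2 against 70.2, 67.5 and 65.5, which is -3.15 ± 0.94 (adjusted p = 0.251), and -1.94 without replicate 1 (adjusted p = 0.00186). For both genes the diaphysis libraries spread widely and still lie below all metaphysis libraries. Type IX collagen, which coats the type II fibrils, has 3 chains with like values. Col9a1 was at 0.236, 8.44 and 4.13 against 69.6, 82.9 and 59.0, and Col9a2 and Col9a3 lay at 0.556 to 8.86 against 52.8 to 77.3. All 3 chains were called lower without replicate 1.

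Matrix proteins that bind these collagens showed the same order of regions. Matn1 (matrilin-1) was at 0.114, 0.619 and 0.208 in the diaphysis and 3.88, 2.66 and 5.17 in the metaphysis (-3.42 ± 0.55, adjusted p = 0.0886). Matn3 was at 0.0507 to 3.16 against 17.4 to 25.4. Hapln1, the link protein that ties aggrecan to hyaluronan, was at 0.665 to 8.10 against 44.6 to 61.3, and Comp, the cartilage oligomeric matrix protein, at 2.17 to 33.7 against 65.0 to 186. Clec3a, a cartilage lectin, was at 0.0782, 2.61 and 1.39 against 70.8, 103 and 19.8, with metaphysis replicate 3 well below the others of its group. Without diaphysis replicate 1 the differences of Matn1, Matn3, Hapln1, Comp and Clec3a were -3.04, -3.54, -2.81, -2.02 and -4.71, all past the threshold (adjusted p from 0.000857 to 0.0422). Epyc (epiphycan), Lect1 (chondromodulin) and 3110079O15Rik passed it too.

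Other genes of the list did not. Sox9, the transcription factor that starts the chondrocyte programme, was at 1.20, 3.53 and 4.13 against 5.43, 6.23 and 5.35, and its adjusted p was 0.408 with and 0.125 without replicate 1. The genes called higher without that library were Matn4, a matrilin also found outside cartilage, and Col11a1, a fibril collagen. Matn4 was at 0.797, 14.1 and 13.4 against 4.37, 6.52 and 4.2 and Col11a1 at 121, 579 and 941 against 332, 316 and 430. With all 6 libraries both overlap between the regions, with differences of 0.14 and 0.18. Hapln1, Comp, 3110079O15Rik, Sox9, Matn4 and Col11a1 were named after their values were seen.

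**Figure D4:**
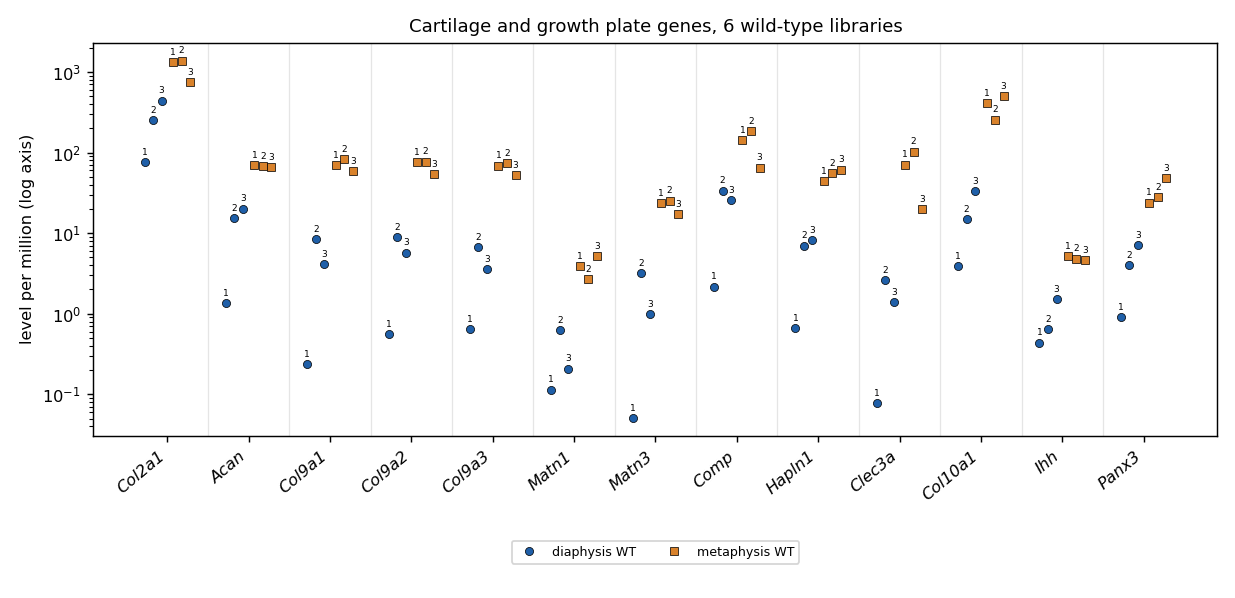
Levels, on a log axis, of 13 cartilage and growth plate genes; circles are the 3 diaphysis and squares the 3 metaphysis wild-type libraries, numbered by replicate. In each gene shown the circles lie below the squares (Acan 1.34 to 20.2 against 65.5 to 70.2), and replicate 1 is the lowest circle. The genes shown were chosen, some after their values were seen. In the lists for cartilage matrix and for the hypertrophic zone, 16 of 25 and 4 of 19 tested genes lay below in this way.

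Genes of the hypertrophic zone and of growth plate signalling were less uniform. Of 19 tested, 4 lay below the metaphysis in every diaphysis library and 0 above, against 11.2% and 9.29% of all genes tested. The median difference was -0.49, or 0.04 without diaphysis replicate 1. Col10a1 (chr10:34109787-34116891, plus strand), the collagen of hypertrophic chondrocytes, was at 3.86, 15 and 33.3 in the diaphysis and 409, 257 and 505 in the metaphysis. The means differed 22.4-fold (-4.90 ± 0.73, adjusted p = 0.0814), and the difference was -4.06 without replicate 1 (adjusted p = 0.00486). Ihh (chr1:74991891-74998246, minus strand), the hedgehog ligand with which prehypertrophic cells pace the plate, was at 0.438, 0.645 and 1.53 against 5.24, 4.84 and 4.67 (-2.53 ± 0.44, adjusted p = 0.112; without replicate 1, -2.18, adjusted p = 0.0261). Panx3, a channel protein of hypertrophic cells and osteoblasts that was named after its values were seen, was at 0.910, 4.0 and 7.04 against 23.9, 28.1 and 48.6. In each of these 3 genes the regions do not overlap. In cKO their differences were -6.30, -2.0 and -3.99 (adjusted p = 2.67e-05, 0.00291 and 2.24e-05). There 9 of the list were called lower, against 8.17% of all genes tested.

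Fgf18, a growth factor of the perichondrium that restrains chondrocyte division, was called higher without replicate 1 (3.08, adjusted p = 0.0403). Fgf18 was not called with all 6 libraries (1.5, limma adjusted p = 0.736). It was at 0.282, 7.78 and 12.8 in the diaphysis and 1.93, 1.57 and 0.401 in the metaphysis, so replicate 1 lies below all metaphysis libraries and the other diaphysis libraries above them. In cKO Fgf18 overlapped, at 0.353, 3.20 and 1.99 against 0.659, 1.67 and 0.580 (0.59, adjusted p = 0.641).

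Some fibrous and growth factor genes showed the same arrangement, with replicates 2 and 3 of the diaphysis above the metaphysis and replicate 1 not. In the list for periosteum, tendon and fibroblasts 0 of 20 genes passed with 6 libraries (median 0.09), and without replicate 1, 6 were called higher and 0 lower (median 0.85). In cKO 3 were called higher and 2 lower (median 0.18). Postn, a matricellular protein of periosteum and tendon, was at 73.4, 868 and 1332 in the diaphysis and 154, 307 and 199 in the metaphysis. Col3a1, the collagen of loose fibrous tissue, was at 171, 1944 and 2975 against 415, 636 and 354. With all 6 libraries Postn and Col3a1 differed by 1.06 and 1.14 (limma adjusted p = 0.768 and 0.735). Without replicate 1 they differed by 2.35 and 2.41 (adjusted p = 0.0156 and 0.0112), and in cKO, where 3 diaphysis libraries enter, by 1.27 and 1.18 (adjusted p = 0.0128 and 0.0263). Aspn (asporin) and Thbs2 (thrombospondin-2), of the list for small proteoglycans and matricellular proteins, were at 19.2, 215 and 371 against 45.6, 97.9 and 55.4 and at 11.0, 151 and 255 against 33.6, 51.0 and 38.1. That list had 8 of 25 genes called higher and 1 lower without replicate 1, and that for type I matrix and its cross-linking 7 of 30 and 0. In cKO the lists stood otherwise. The small proteoglycans had 6 called higher and 4 lower (median -0.04), and type I matrix had 1 higher and 11 lower (median -0.57). Of all genes tested, 2.69% were called higher and 1.43% lower without replicate 1, and 3.79% and 8.17% in cKO. Over all genes, 65.2% of the calls without replicate 1 were higher, against 31.7% of the cKO calls. Eln, the elastin of vessels and ligaments, was at 21.3, 130 and 168 against 34.6, 44.0 and 36.3, and in cKO at 92.6 to 112 against 82.1 to 124. These 5 genes were named after their values were seen. Scx (scleraxis), the tendon transcription factor, lay below the metaphysis in every diaphysis library, at 0.471, 5.55 and 5.78 against 8.79, 6.42 and 6.21 (adjusted p = 0.591; in cKO, -1.16, adjusted p = 0.0323).

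Secreted growth factors were among the genes with the largest differences without replicate 1. Igf2, the insulin-like growth factor of fetal tissue, was at 17.0, 107 and 160 in the diaphysis and 11.7, 24.3 and 14.5 in the metaphysis, 7.94-fold higher in the mean of replicates 2 and 3. Ptn (pleiotrophin), a heparin-binding factor, was at 10.4, 118 and 174 against 15.9, 26.5 and 19.3. With all 6 libraries the differences of Igf2 and Ptn were 2.04 and 1.57 (limma adjusted p = 0.377 and 0.597). Without replicate 1 the differences were 3.02 and 2.83 (adjusted p = 0.00669 and 0.00392), and in cKO, 1.21 and 1.88 (adjusted p = 0.00414 and 0.00393). Spock2, a proteoglycan, P4ha3, a subunit of collagen prolyl hydroxylase, Penk, the precursor of enkephalins, and Lrrc15, a membrane protein of fibroblasts, had like wild-type values. They lay at 1.71 to 2.11 in replicate 1, 15.8 to 35.3 in replicates 2 and 3, and 1.96 to 6.14 in the metaphysis, and all 4 were called without replicate 1. With all 6 libraries none of the 4 passed (limma adjusted p from 0.471 to 0.683). In cKO P4ha3 and Lrrc15 were called higher (adjusted p = 0.0309 and 0.0135), while Spock2 (1.27, adjusted p = 0.0767) and Penk (0.91, adjusted p = 0.11) did not pass.

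Wnt proteins and their modulators govern bone formation. In their list 0 of 31 genes passed with 6 libraries (median 0.18), and without replicate 1, 10 were called higher and 1 lower (median 0.87). In cKO the balance was the other way, with 2 called higher and 6 lower (median -0.17). The balance over all genes moved in the same direction: 65.2% of all calls without replicate 1 were higher, against 31.7% of all cKO calls. As shares of all genes tested, 2.69% were called higher and 1.43% lower without replicate 1, and 3.79% and 8.17% in cKO. Wnt16 (chr6:22238227-22250409, plus strand), a ligand of cortical bone known to restrain osteoclasts, was at 2.11, 24.9 and 37.8 in the diaphysis and 1.90, 2.96 and 2.51 in the metaphysis. Its difference was 2.34 ± 1.01 (adjusted p = 0.417), and 3.61 without replicate 1 (adjusted p = 0.00179). In cKO Wnt16 was at 11.2, 18.7 and 20.6 against 3.92, 1.63 and 2.08, without overlap (2.73, adjusted p = 0.00443). The gene called lower without replicate 1 was Notum, the secreted enzyme that inactivates Wnt ligands, at 1.06, 2.62 and 4.0 against 8.32, 8.17 and 11.0 (-1.97 ± 0.46, adjusted p = 0.18; without replicate 1, -1.46, adjusted p = 0.0272; in cKO, -2.34, adjusted p = 0.00117). Frzb, a decoy receptor found in cartilage, was at 3.06, 6.34 and 8.60 against 12.3, 14.0 and 12.2, without overlap, and did not pass with or without replicate 1 (adjusted p = 0.265 and 0.0557).

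Antagonists among those called higher without replicate 1, named after their values were seen, were Sfrp4, at 12.6, 90.6 and 140 against 19.4, 27.0 and 27.9, and Dkk3, at 5.67, 50.3 and 84.7 against 12.8, 17.2 and 10.9. In cKO Sfrp4 overlapped, at 31.9 to 65.6 against 38.4 to 91.0. In the list for fibroblast, insulin-like and platelet-derived growth factors 6 of 26 genes were called higher and 0 lower without replicate 1 (median 0.50), and in that for BMP and TGF-beta signalling 5 of 34 and 0 (median 0.45). With all 6 libraries 0 genes of either list passed, and the medians were -0.11 and -0.06. In cKO 1 of the first was called higher and 6 lower (median -0.25), and of the second 0 and 8 (median -0.32). Shares of all genes tested were 2.69% higher and 1.43% lower without replicate 1, and 3.79% and 8.17% in cKO. Over all genes, 65.2% of the calls without replicate 1 were higher, against 31.7% of the cKO calls. In the BMP and TGF-beta list 2 of 34 genes lay above and 2 below the metaphysis in every diaphysis library, against 9.29% and 11.2% of all genes tested. Chrdl1, a secreted BMP antagonist, lay above, at 10.5, 8.0 and 9.99 against 4.88, 4.99 and 5.29 (adjusted p = 0.154; in cKO, 0.20, adjusted p = 0.69). Id1, a target gene of BMP signals, lay below the metaphysis in every diaphysis library, at 19.1, 39.2 and 40.7 against 52.4, 55.5 and 50.5 (adjusted p = 0.366).

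The genes of bone formation overlapped between the regions in wild type with all 6 libraries. Of 22 osteoblast genes 0 passed, and 0 lay above and 0 below in every library, against 9.29% and 11.2% of all genes tested. Their median was -0.45, or 0.33 without diaphysis replicate 1, where 1 was called higher and 0 lower. Col1a1, the chief collagen of bone, was at 3627, 19679 and 29228 in the diaphysis and 17338, 14578 and 20451 in the metaphysis (-0.44 ± 0.73, adjusted p = 0.882). Bglap (osteocalcin) was at 1237, 5210 and 8359 against 3863, 2572 and 2902, and it held 59.2% to 64.4% and 62.5% to 65.4% of its sum with the near-identical Bglap2. The transcription factors Runx2 and Sp7, which set up the osteoblast fate, were at 15.2, 46.1 and 60.3 against 31.0, 31.2 and 38.7 and at 32.3, 150 and 242 against 135, 131 and 185. In each of these 4 genes the metaphysis values fall inside the range of the diaphysis values. For Bglap and Runx2 this rests on diaphysis replicate 1, as replicates 2 and 3 lie above all metaphysis libraries. Without replicate 1 their differences were 1.11 and 0.65 (limma adjusted p = 0.0567 and 0.064). Those of Col1a1 and Sp7 were 0.47 and 0.36 (adjusted p = 0.276 and 0.35). In cKO, with a median of -0.92, 14 of the list were called lower and 0 higher, against 8.17% and 3.79% of all genes tested.

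Dlx3 (chr11:94981403-94986610, plus strand), the homeobox gene deleted in the cKO mice, was at 6.48, 18.2 and 34.0 in the wild-type diaphysis and 19.7, 20.3 and 24.1 in the wild-type metaphysis. The regions overlap (-0.42 ± 0.55, adjusted p = 0.841), and the difference was 0.22 without diaphysis replicate 1. In cKO it lay at 1.81, 3.81 and 2.79 and at 5.02, 6.89 and 8.06, below every wild-type library of the same region. Of 31 limb and positional homeobox genes 0 passed with 6 libraries, and 1, Tbx4, was called without replicate 1. In cKO, with a median of -0.52, 1 was called higher and 9 lower, against 3.79% and 8.17% of all genes tested. Tbx4, a hindlimb T-box factor named after its values were seen, was at 0.796, 3.41 and 5.35 against 0.635, 1.28 and 0.529 (2.34 without replicate 1, adjusted p = 0.0377; in cKO, 1.18, adjusted p = 0.0491).

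Osteocyte genes overlapped as well with all 6 libraries, with 1 exception. Of 19 tested 0 passed, with a median of -0.11, or 0.37 without replicate 1. The exception was Orai1, the pore of a calcium channel, at 15.7, 19.9 and 17.9 against 30, 21.1 and 22.8 (adjusted p = 0.38). Sost, the Wnt antagonist made by osteocytes, was at 45.1, 91.2 and 110 in the diaphysis and 90.5, 33.3 and 42.5 in the metaphysis (0.60 ± 0.46, adjusted p = 0.679). Dmp1, a matrix phosphoprotein of osteocytes, was at 132, 544 and 785 against 519, 363 and 530, and Mepe, of the same protein family, at 59.9, 126 and 219 against 144, 65.0 and 79.8. Without replicate 1 the differences of Sost, Dmp1 and Mepe were 0.99, 0.49 and 0.87 (adjusted p = 0.156, 0.201 and 0.175). Pdpn, a membrane protein of cells turning into osteocytes that was named after its values were seen, was at 5.70, 23.3 and 37.9 against 11.5, 9.70 and 13.3 and was called without replicate 1 (1.37, adjusted p = 0.0288). Fgf23, the phosphate-regulating hormone of osteocytes, was too low for the test, at 0.0421, 1.74 and 3.03 against 0.186, 0.0725 and 0.768. In cKO, with a median of -0.31, 2 of the 19 were called higher and 2 lower, against 3.79% and 8.17% of all genes tested. Mepe (1.22, adjusted p = 0.0144) and Pdpn (1.19, adjusted p = 0.0274) were the higher ones, Irx5, a homeobox factor, was 1 of the lower (-1.49, adjusted p = 0.00108), and Fgf23, tested in cKO alone, was higher (2.57, adjusted p = 0.00714). Of 19 mineralization genes 0 passed, with or without replicate 1, and in cKO 1 was called higher and 9 lower.

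Of 19 osteoclast genes tested 0 passed. In every diaphysis library 4 lay below the metaphysis and 0 above, against 11.2% and 9.29% of all genes tested. The median was -0.48, or -0.16 without replicate 1. Acp5, the tartrate-resistant phosphatase that marks these cells, was at 314, 1352 and 1989 in the diaphysis and 2416, 2133 and 2928 in the metaphysis, without overlap (-1.39 ± 0.64, adjusted p = 0.45). Siglec15, a receptor that takes part in osteoclast maturation, was at 0.223, 2.68 and 3.48 against 12.3, 4.28 and 14.3, also without overlap. Ctsk, the collagen-degrading cathepsin, overlapped at 330, 1575 and 2565 against 1902, 1970 and 2388. In cKO 12 were called lower and 0 higher, against 8.17% and 3.79% of all genes tested. Acp5 was among the lower ones (-1.94, adjusted p = 0.00233). Tnfsf11, the ligand that induces osteoclasts, and its decoy receptor Tnfrsf11b overlapped in wild type, at 2.02 to 11.5 against 5.41 to 9.12 and at 1.90 to 10.8 against 6.02 to 9.10. Without replicate 1 their differences were 0.51 and 0.36 (adjusted p = 0.23 and 0.365).

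**Figure D5:**
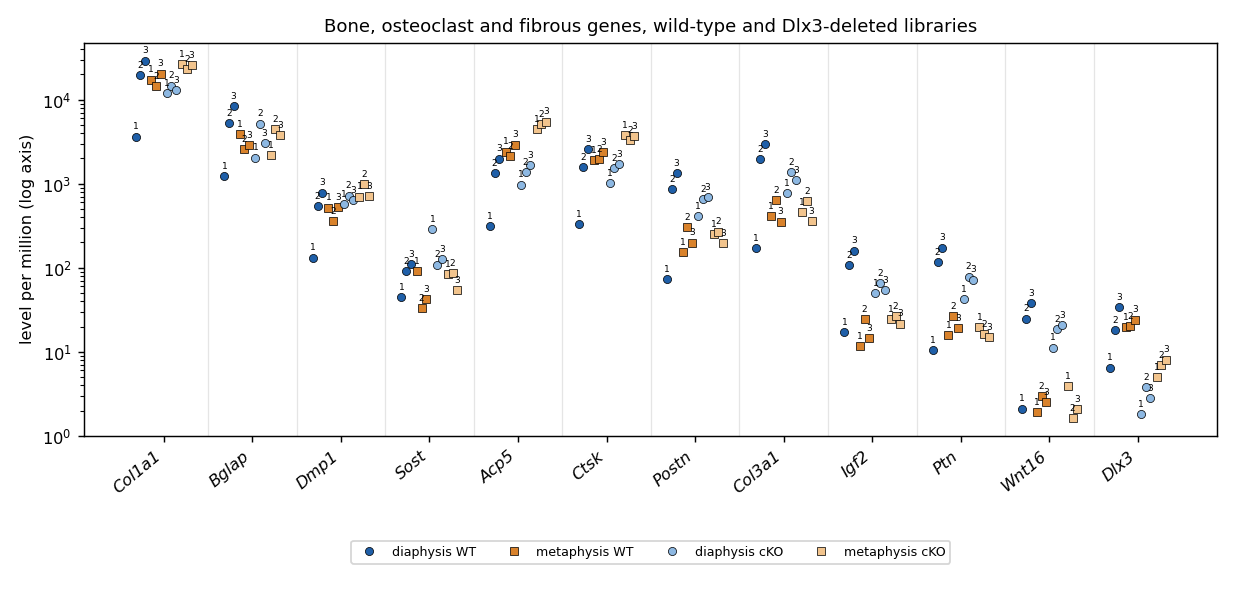
Levels, on a log axis, of 12 bone, osteoclast and fibrous genes in all 4 groups; dark markers are wild-type and light markers cKO libraries, circles diaphysis and squares metaphysis, numbered by replicate. Wild-type diaphysis replicate 1 lies below replicates 2 and 3 in each gene shown, for Wnt16 at 2.11 beside 24.9 and 37.8.

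Among leukocytes, genes of monocytes and macrophages lay above the metaphysis in 11 of 20 cases in every diaphysis library and below in 0. Of all genes tested, 9.29% lay above in this way and 11.2% below. The median difference of the list was 0.40, and 0 passed. Cd163, the haemoglobin scavenger receptor of tissue macrophages, was at 14.1, 16.0 and 17.5 in the diaphysis and 3.58, 6.64 and 4.89 in the metaphysis (1.67 ± 0.25, adjusted p = 0.0827; without replicate 1, 1.76, adjusted p = 0.0207). Emr1, the F4/80 antigen of macrophages, was at 25.4, 31.5 and 25.7 against 12.2, 17.0 and 11.8, and Vcam1, an adhesion molecule of stromal cells and macrophages, at 172, 200 and 169 against 106, 115 and 113. Without replicate 1, 4 of the list were called higher and 0 lower (median 0.59). Shares of all genes tested were 2.69% higher and 1.43% lower without that replicate, and 3.79% and 8.17% in cKO. In cKO 0 were called higher and 2 lower, while the median was 0.50, of the same sign as in wild type. Emr1 was named after its values were seen.

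In the list for neutrophils and other granulocytes 4 of 23 genes lay above the metaphysis in every diaphysis library and 1 below. Of all genes tested, 9.29% lay above in this way and 11.2% below. The median of the list was 0.15, or 0.10 without replicate 1, and 0 passed. The 2 genes of it called without replicate 1 encode eosinophil granule proteins. Prg2, the major basic protein, was at 939, 1476 and 1166 in the diaphysis and 715, 555 and 473 in the metaphysis, and Epx, the eosinophil peroxidase, at 59.5, 92.1 and 85.1 against 46.7, 36.5 and 31.7. Both were higher without replicate 1 (adjusted p = 0.0259 and 0.0181), and in cKO their adjusted p was 0.0435 and 0.0525, with 1 of the list called higher and 1 lower. Shares of all genes tested were 2.69% higher without replicate 1, and 3.79% higher and 8.17% lower in cKO. Ear3 and Ear12, ribonucleases of eosinophils, had identical values in all 12 libraries, 26.7, 45.0 and 105 against 2.17, 2.04 and 14.7 in wild type, so these data do not separate them.

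The lymphoid lists were as follows, with no test between them. Of all genes tested, 9.29% lay above the metaphysis in every diaphysis library and 11.2% below. For T and NK cells 7 of 18 genes lay above the metaphysis in every diaphysis library and 1 below, with a median of 0.50, or 0.11 in cKO, where 0 were called, and the T-cell coreceptor Cd4 was at 9.38, 18.6 and 12 against 6.54, 6.86 and 5.79. For B cells 0 of 22 lay above and 7 below, with a median of -0.26, or 0.26 in cKO. Vpreb3, a gene of B-cell precursors, was at 124, 121 and 92.6 against 190, 223 and 256 (-0.99 ± 0.17, adjusted p = 0.104; without replicate 1, -1.06, adjusted p = 0.0243). The erythroid list had 7 of 20 above and 0 below, with a median of 0.29, or 0.04 without replicate 1. In cKO, with a median of 1.06, 13 were called higher, against 3.79% of all genes tested. With 6 wild-type libraries 0 genes of these 3 lists passed the threshold.

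Vessel and muscle genes were also measured. In the endothelial list 0 of 26 passed with 6 libraries, and the median was -0.26, or 0.09 without replicate 1. In every diaphysis library 2 lay above the metaphysis and 3 below, against 9.29% and 11.2% of all genes tested. In cKO, with a median of -0.48, 1, Esm1, was called higher and 10 lower, against 3.79% and 8.17% of all genes tested. Esm1, a proteoglycan of sprouting vessel tips, was at 34.1, 28.5 and 29.5 in the diaphysis and 12.3, 14.9 and 16.0 in the metaphysis (1.09 ± 0.16, adjusted p = 0.0796; in cKO, 1.05, adjusted p = 0.0126). Sox18, an endothelial transcription factor, was at 7.74, 13.4 and 16.3 against 33.7, 24.3 and 34.5 (-1.35 ± 0.30, adjusted p = 0.165; in cKO, -1.69, adjusted p = 0.00206). Neither overlaps between the regions in wild type. In the skeletal muscle list 15 of 26 genes lay below the metaphysis in every diaphysis library and 0 above, with a median of -0.92. Without replicate 1 the median was -0.91, with 3 called lower and 0 higher, against 1.43% and 2.69% of all genes tested. In cKO the median was 0.01, with 0 called. Pvalb, the calcium buffer of fast fibres, was at 668, 579 and 281 against 1465, 1751 and 1677 (-1.77 ± 0.32, adjusted p = 0.116). The list score of muscle ran from -0.89 to 0.14 in the wild-type diaphysis and from 0.06 to 0.98 in the metaphysis.

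Cell division and smooth muscle were described by lists of their own. Of 31 proliferation genes 8 lay above the metaphysis in every diaphysis library and 1 below, against 9.29% and 11.2% of all genes tested. The median was 0.09, or -0.01 without replicate 1, where 0 were called higher and 2 lower. In cKO, with a median of 0.69, 15 were called higher and 0 lower, against 3.79% and 8.17% of all genes tested. Mcm5, a part of the replication helicase, was at 183, 155 and 142 against 119, 116 and 121, while Ube2c, an enzyme that ends mitosis, was at 326, 241 and 174 against 363, 397 and 441, in the opposite direction. In the list for vessel wall and smooth muscle 0 of 11 passed. Without replicate 1 the share of all genes called higher was 2.69%, and of this list 4 were called higher and 0 lower (median 0.83). One of them was Mylk, the myosin kinase of smooth muscle, at 27.5, 45.8 and 70.7 against 25.8, 24.0 and 27.3 (1.15, adjusted p = 0.0261).

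Of 32 listed genes of oxidative phosphorylation, the mitochondrial respiratory chain and its ATP synthase, 20 lay below the metaphysis in every diaphysis library and 0 above. Of all genes tested, 11.2% lay below in this way and 9.29% above. The median of the list was -0.35, and 0 of it passed. The list does not hold Ndufc1, Uqcr10 and Ndufb4, the 3 respiratory-chain subunits that were lower past the threshold with 6 libraries. Cox5a, a subunit of cytochrome oxidase with a near-identical copy, was at 156, 174 and 123 in the diaphysis and 330, 324 and 314 in the metaphysis (-1.11 ± 0.14, adjusted p = 0.0613). Sdhc, of succinate dehydrogenase, was at 129, 137 and 109 against 252, 269 and 225 (-0.99 ± 0.13, adjusted p = 0.0613). Without replicate 1, 7 of the list were called lower and 0 higher, against 1.43% and 2.69% of all genes tested. In cKO 0 were called (median -0.06). Muscle is rich in these genes, and its list differed in the same direction. Transcript length moved with the difference too: the median was -0.18 for 365 genes under 600 bases, -0.10 for 2223 from 600 to 1200, and 0.04 for 2347 of 4000 bases or more. The genes of the list have a median length of 930 bases, against 2271 for all genes. The part that muscle or length plays in these values was not tested. Of 40 ribosomal protein genes 12 lay above and 11 below, with a median of 0.05. In the list for hypoxia and glycolysis 3 of 25 genes lay above and 6 below, with 2 glycolytic enzymes in opposite directions. Pgk1, which has a near-identical copy, was at 205 to 252 against 361 to 390 (adjusted p = 0.104), and the hexokinase Hk1 at 118, 107 and 115 against 70.7, 75.7 and 86.0 (adjusted p = 0.154).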

How the data were processed

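Per the submitters' processing notes, the tools were Partek 6.6, TopHat 1.3.2, CASAVA 1.8.2 and Bowtie 0.12.7.0, with mouse build mm9 and no role or order stated. The authors deposited 1 table of RPKM per region (24824 transcripts for the diaphysis, 24456 for the metaphysis), and the kit does not mark strand. Low RPKM values step in units that depend on each library's own total, which gave the depths. Here RPKM was summed per symbol, rescaled over the 18335 shared symbols, and tested with limma 3.58.1 (R 4.3.3, trend) on log2(level + 0.1), keeping genes at 1 or more in 3 of the 6 libraries. Near-identical copies were searched with megablast in the mm9 annotation (at least 90% identity, 100 bases, 50% of the coding part). Figures used matplotlib 3.10.9. The fit was tested on simulated data.

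The members, gene lists and tests were chosen with earlier results of these data known. Genes were named by rule: Dlx3, fixed bone genes, the largest differences past the threshold, and the leading genes of each list; because 1 library stood apart, the rule was also applied without it. Others are marked as named after their values were seen. Some genes past the threshold are counted but not reported by name here. Alternatives were other pseudocounts, minimums, scalings, transcripts, weights and moderation, all 12 libraries together, and each library left out.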

Additional observations from a re-analysis of the deposited data

Results flagged for a closer look

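Zfp353, a zinc finger gene listed for the diaphysis but not for the metaphysis, had a mean of 5.93 RPKM in the 3 wild-type diaphysis libraries (7.45, 4.85 and 5.47). It was picked out because it lies outside the symbols compared and is well above 0. Of 732 symbols listed for the diaphysis alone it was the 1 with a wild-type mean of at least 1 RPKM, and of 443 listed for the metaphysis alone 0 reached that mean.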

How the results depend on the processing

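No paired analysis was possible because the replicate numbers follow the order of the samples and pair no libraries, and no title number is shared between libraries. Leaving out 1 library at a time gave 1 to 367 genes higher and 0 to 196 lower, and 1 to 136 called in cKO with the same sign. The highest counts came without diaphysis replicate 1. The 12 higher genes became 24 with all 12 libraries, 187 without diaphysis replicate 1 and with the median of ratios, and 0 with near-identical copies left out. The 8 lower became 23 with a pseudocount of 1, 3 with RPKM as deposited, 5 with globins left out of the total, 5 with the median of ratios, 76 with all 12 libraries, 233 without diaphysis replicate 1 and with the median of ratios, and 0 without copies. Leaving out copies, and joining the median of ratios with the missing library, were chosen after seeing the data. Why the counts changed was not tested. Library weights gave 2709 higher and 1405 lower; they put 32.4 on diaphysis replicate 2 and 0.0959 on replicate 1, and so rest largely on 1 library.

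With those weights the list medians were -1.93 for cartilage, -0.41 for muscle, 0.74 for macrophages, 0.75 for nerve, -0.04 for hypoxia and -0.19 for oxidative phosphorylation, and Krt10 (0.09), Sp7 (0.01), Col1a1 (0.17), Dmp1 (0.21), Tnfsf11 (0.38) and Tnfrsf11b (0.11) changed sign. The T and NK median was 0.34 with a pseudocount of 1 and 0.23 with a minimum of 5. Over the libraries left out, medians ran from 0.30 to 0.60 for T and NK cells, -0.41 to 0.09 for endothelium, -0.18 to 0.15 for blood progenitors, -0.33 to -0.07 for hypoxia, -0.07 to 0.78 for nerve and -0.01 to 0.07 for ribosomal proteins. Genes whose sign changed ran from -0.27 to 1.11 (Bglap), -0.43 to 1.05 (Col11a1), -1.03 to 0.47 (Col1a1), -0.18 to 0.01 (Cxcl12), -0.96 to 0.22 (Dlx3), -0.79 to 0.49 (Dmp1), -0.33 to 0.04 (Krt10), -0.53 to 1.46 (Matn4), -0.06 to 0.87 (Mepe), -0.33 to 0.65 (Runx2), -1.09 to 0.36 (Sp7), -0.86 to 0.36 (Tnfrsf11b) and -0.72 to 0.51 (Tnfsf11); none of these passed the threshold with 6 libraries.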
